A study of Mus musculus with 2 samples.

Results

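Zinc, iron and copper handling genes were compared between a fibroblast and a skin-derived precursor (SKP) library of mouse dermis. The genes were taken by symbol, without a threshold on their levels: every gene of the zinc exporter family Slc30a (ZnT), the zinc importer family Slc39a (ZIP) and the metalloreductase family Steap, and 18 further genes of metal binding, uptake, storage, export and regulation. Of 17431 genes with a read in either library, 43 matched. Both cultures came from BALB/c dermis, and poly(A) RNA of each was sequenced as 1 library. The fibroblasts, from mice at postnatal day 3, were kept in DMEM that held fetal bovine serum at 10%. The SKPs, multipotent dermal cells selected by their growth in defined factors, came from mice at postnatal day 4 and were grown in DMEM/F12 that held the growth factors FGF2 (40 ng/ml) and EGF (20 ng/ml) and the supplement B27 (2%). Cell type, medium and age therefore differed together and cannot be told apart, and the number of animals or cultures behind each library is unknown here. With 1 library per cell type no test was possible, so each difference describes these 2 libraries and was not checked in replicates.

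Cells keep free metal ions scarce because zinc, iron and copper are both cofactors and toxins. ZIP proteins move zinc into the cytosol and ZnT proteins move it out to vesicles or the medium, while metallothioneins bind the surplus and the transcription factor Mtf1 senses it. Iron bound to transferrin enters through the transferrin receptor, is reduced by Steap proteins, crosses the endosome through Slc11a2, and is stored in ferritin or exported by ferroportin (Slc40a1). Copper enters through Slc31a1, is handed over by the chaperone Atox1 and is pumped into the secretory pathway by Atp7a, where it loads enzymes such as lysyl oxidase.

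The SKP library held more RNA of the reductase gene Steap4, of transferrin (Trf), of ferroportin (Slc40a1) and of both common metallothioneins. Smaller differences in the same direction, 2.03-fold to 2.34-fold, were found for the zinc transporters Slc39a14, Slc39a10 and Slc30a4 and for the ferroxidase gene Heph. The other 27 expressed members, among them the copper genes, the ferritin chains, the iron regulators and the zinc sensor Mtf1, were under 2-fold apart. The promoters of the metallothionein genes are shown with that of Slc30a1, a zinc exporter gene also known as a target of Mtf1, because these 3 did not differ alike between the libraries, and with that of Steap4, the member with the largest ratio. Each run is 280 bases, from 250 before to 30 after the start in the RefSeq promoter table (build GRCm38.p6). Capitals mark the core of the metal response element that Mtf1 binds (TGCACNC or TGCGCNC) and of the antioxidant response element (TGACNNNGC), each searched on both strands. The antioxidant core can overlap the AP-1 motif TGACTCA.

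Mt1 (chr8:94178839-94179118, plus strand): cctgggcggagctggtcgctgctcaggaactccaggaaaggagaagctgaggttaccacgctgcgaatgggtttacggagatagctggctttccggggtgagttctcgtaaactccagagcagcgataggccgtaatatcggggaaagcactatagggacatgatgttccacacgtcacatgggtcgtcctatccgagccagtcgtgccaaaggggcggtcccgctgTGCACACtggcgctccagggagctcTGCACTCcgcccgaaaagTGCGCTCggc

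Mt2 (chr8:94172368-94172647, plus strand): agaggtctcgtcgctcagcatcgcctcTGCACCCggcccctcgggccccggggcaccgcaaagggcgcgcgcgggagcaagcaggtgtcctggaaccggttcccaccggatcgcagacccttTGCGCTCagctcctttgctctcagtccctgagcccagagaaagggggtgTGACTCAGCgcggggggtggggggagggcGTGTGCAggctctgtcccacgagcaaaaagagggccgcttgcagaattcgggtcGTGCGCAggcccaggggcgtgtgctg

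Slc30a1 (chr1:191906531-191906810, plus strand): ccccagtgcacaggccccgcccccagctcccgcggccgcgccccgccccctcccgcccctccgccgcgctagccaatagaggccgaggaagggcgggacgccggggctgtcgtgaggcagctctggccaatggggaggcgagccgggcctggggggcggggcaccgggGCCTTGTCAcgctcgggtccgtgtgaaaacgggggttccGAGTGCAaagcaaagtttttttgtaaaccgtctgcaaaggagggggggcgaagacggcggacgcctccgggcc

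Steap4 (chr5:7960222-7960501, plus strand): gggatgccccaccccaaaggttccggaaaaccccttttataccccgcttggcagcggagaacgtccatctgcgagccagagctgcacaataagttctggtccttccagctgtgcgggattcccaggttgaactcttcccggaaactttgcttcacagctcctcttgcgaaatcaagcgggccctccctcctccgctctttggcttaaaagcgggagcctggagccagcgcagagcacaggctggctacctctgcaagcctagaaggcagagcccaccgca

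Mt1 held 3 metal response cores in its run, Mt2 held 4, Slc30a1 held 1 and Steap4 held 0. Among all 32851 promoter windows of this length, 24.1% held at least 1 such core and 1.73% held 3 or more. The antioxidant core was found once each in Mt2 and Slc30a1, and 11.5% of all windows held it. The Mt1 cores begin at -23, 3 and 21 from the start in the promoter table. For Mt1 the RefSeq gene annotation gives another start (94178883), inside the run shown and upstream of the start in the promoter table. All 3 Mt1 cores lie downstream of that other start. For Mt2 the annotated gene start (94172618) is that of the promoter table. Which Mt1 start these cells use was not tested. Bases beyond the runs were not searched, so the lack of an antioxidant core in Mt1 holds for its run only. Of the 43 members 36 had a promoter in the table, and 18 of these had a metal response core in at least 1 window, some genes having several windows. This count is per gene, so it cannot be set against the 24.1%, which is per window. Besides Mt1 and Mt2, the vesicle zinc exporter gene Slc30a4 and Slc30a10 each had 3 matches. In Slc30a10 the matches at -232 and -233 from the start overlap on opposite strands, so they are not separate sites. Overlapping matches were counted one by one, also in the shares over all windows. A match is a description of letters and does not show a bound site, and the absence of a match says only that these letters are not in the window.

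Levels are given as RPKM, reads in a gene per unit of its length and of the library's counted reads, and 96.4% of 19084469 reads mapped to genes in fibroblasts and 96.9% of 19563021 in SKPs were counted. A gene counted as expressed at RPKM 1 or more with 20 reads or more in either library, and it was called when the levels were 2-fold or more apart and the 95% exact counting interval excluded equality. Intervals in parentheses are these intervals, which cover counting error only. Of the 43 members 36 were expressed, 33 of them in both libraries and 3 (Steap4, Trf and Slc40a1) in the SKP library alone. Slc40a1 missed the filter in fibroblasts only narrowly, at 0.997 RPKM with 62 reads. Of the 36, 9 were higher in the SKP library and 0 were lower. Among all 12053 expressed genes 12.1% were higher and 6.41% were lower. Over all 43 members without the filter 10 were higher and 0 lower, against 12.6% and 6.22% of every gene with a read. The 3 members that passed in the SKP library alone did so through the library in which they were high, so the filter itself favoured that direction. Among the 33 that passed in both libraries, 6 were higher and 0 lower, against 7.44% and 4.66% of all genes that passed in both. At a threshold of 1.5-fold 11 of the 36 were higher and 2 were lower, against 18.7% and 14.2% of all expressed genes. The median log2 ratio (SKP over fibroblast) was 0.23 over the 36 and -0.01 over all expressed genes. Over the 33 that passed in both libraries it was 0.12, against -0.03 over all genes that passed in both.

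**Figure D1:**
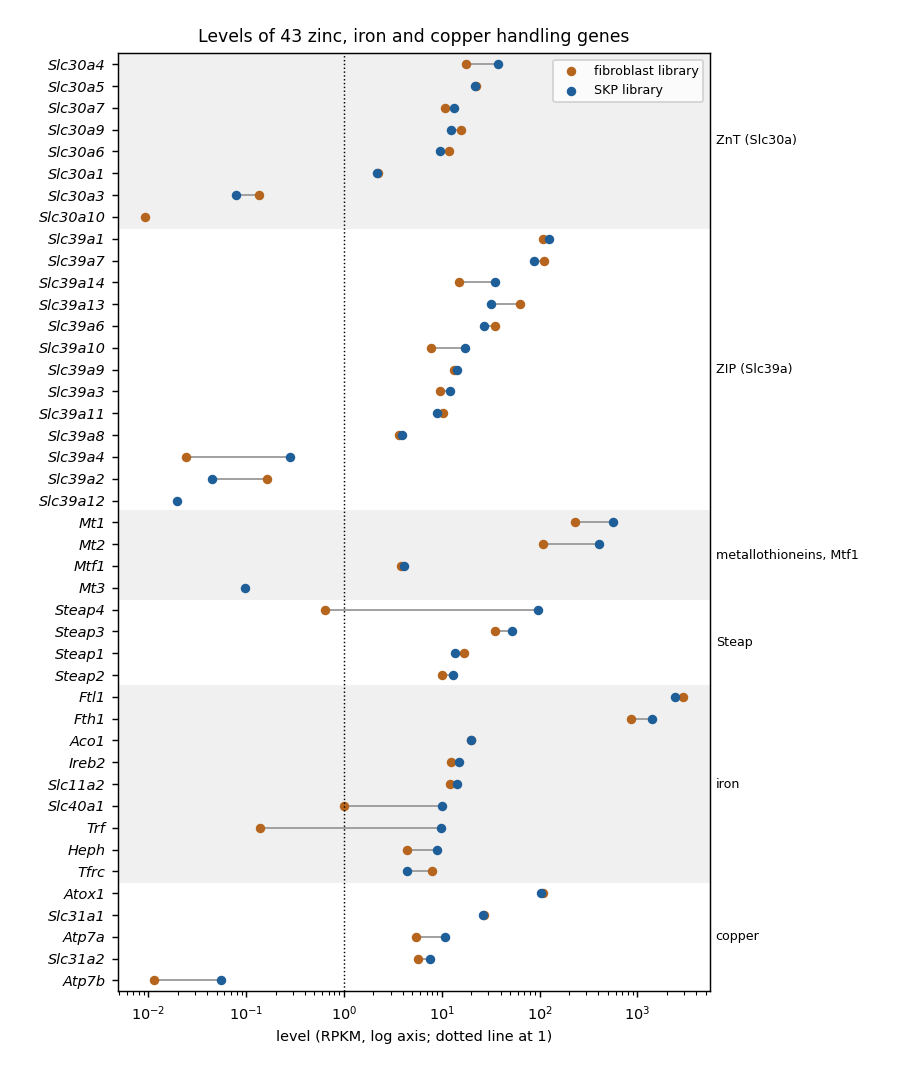
Level in RPKM (log axis) of each of the 43 members, 1 row per gene grouped by family, with the fibroblast library in brown and the SKP library in blue; a library with 0 reads has no point. The longest lines join Steap4, Trf and Slc40a1, while most other pairs of points lie close together above RPKM 1.

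Together the members took 0.656% of counted fibroblast reads (0.652 to 0.659, Clopper-Pearson) and 0.794% of SKP reads (0.790 to 0.798). Ferritin was the bulk of this: Fth1 and Ftl1 made up 3789 of 4859 summed RPKM in fibroblasts and 3856 of 5694 in SKPs. The summed RPKM of the other 41 members was 1069.7 in fibroblasts and 1838 in SKPs. The order of levels was alike at the top, with Ftl1, Fth1 and Mt1 the first 3 in both libraries. It differed for Steap4, which was 35th of 43 in fibroblasts and 7th in SKPs.

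Of 8 Slc30a members with reads, 6 were expressed, 1 was higher in the SKP library and 5 were neither, which for so few genes is near the shares over all expressed genes (12.1% higher and 6.41% lower). Slc30a4, which loads zinc into endosomes and secretory vesicles, had 17.7 RPKM in fibroblasts and 37.7 in SKPs and was 2.13-fold higher (2.02 to 2.26). Slc30a1, the exporter of the plasma membrane, had 2.24 RPKM in fibroblasts and 2.19 in SKPs, a ratio of 0.976 (0.805 to 1.18). Its interval spans equality, so these 2 libraries gave no detectable difference in Slc30a1. The exporters of the early secretory pathway were also close: Slc30a5 had 22.3 RPKM in fibroblasts and 21.7 in SKPs. Slc30a6, the partner with which Slc30a5 forms a working complex, had 11.9 and 9.50, and Slc30a7 had 10.7 and 13.2. Slc30a9, a zinc exporter of mitochondria, had 15.7 RPKM in fibroblasts and 12.4 in SKPs. Slc30a3, which fills synaptic vesicles with zinc, had 5 fibroblast reads and 3 SKP reads, and Slc30a10, a manganese exporter, had 1 and 0. Of these last 2, neither reached the expression filter, and a count of 0 allows up to 3 reads, worth 0.158 RPKM for a gene of 1 kb in the SKP library.

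Zinc importers differed in both directions, and their summed level was almost the same, 376 RPKM in fibroblasts and 365 in SKPs. Of 13 Slc39a members with reads, 10 were expressed, of which 2 were called higher in SKPs, 0 lower and 8 neither. For so few genes this is near the shares over all expressed genes (12.1% higher and 6.41% lower). Slc39a14, which carries zinc, iron and manganese into the cell, had 14.9 RPKM in fibroblasts and 34.9 in SKPs, a 2.34-fold difference (2.19 to 2.49). Slc39a10 had 7.75 RPKM in fibroblasts and 17.5 in SKPs, a 2.25-fold difference (2.06 to 2.46). Slc39a6, its closest relative in the family and partner at the plasma membrane, went the other way at 34.9 against 27.2. The level of Slc39a10 as a multiple of Slc39a6 was thus 0.222 in fibroblasts and 0.642 in SKPs, a change of 2.89-fold (Wald interval from the reads 2.60 to 3.21) that does not depend on how the libraries are scaled.

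Slc39a13 was the member furthest in the fibroblast direction among the expressed ones. It moves zinc out of the early secretory pathway, and its loss causes a connective tissue disorder of skin and skeleton. It had 62.6 RPKM in fibroblasts and 31.9 in SKPs, 1.96-fold higher in fibroblasts (1.84 to 2.10), which is just under the 2-fold threshold. The 2 most abundant importers were Slc39a1 at the plasma membrane, with 108 RPKM in fibroblasts and 126 in SKPs, and Slc39a7 of the endoplasmic reticulum, with 111 and 88.0. Slc39a3 had 9.70 and 12.1, Slc39a9 of the Golgi had 13.2 and 14.3, and Slc39a11 had 10.2 and 9.03. Slc39a8, a relative of Slc39a14 that also carries manganese, had 3.69 RPKM in fibroblasts and 3.93 in SKPs. Slc39a2 had 7 fibroblast reads and 2 SKP reads, and Slc39a12, known from brain, had 0 and 1. Slc39a4, the intestinal zinc importer, had 1 read in fibroblasts and 12 in SKPs, an 11.7-fold ratio with a wide interval (1.72 to 498), and it is the tenth member called without the expression filter.

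Both common metallothioneins, small cysteine-rich proteins that bind zinc and copper, were higher in the SKP library. Mt1 had 2490 reads (232 RPKM) in fibroblasts and 6154 reads (557 RPKM) in SKPs and was 2.40-fold higher (2.29 to 2.52). Mt2 had 1123 reads (109.7 RPKM) in fibroblasts and 4302 reads (408 RPKM) in SKPs and was 3.72-fold higher (3.48 to 3.98). Both genes were already among the most abundant members in fibroblasts, and among all expressed genes Mt1 was 256th there and 88th in SKPs. The level of Mt2 was 0.473 of that of Mt1 in fibroblasts and 0.733 in SKPs, a change of 1.55-fold (Wald interval 1.43 to 1.68). The genes are neighbours in the RefSeq annotation, with no gene between them. Mt3, the metallothionein of the nervous system, had 0 fibroblast reads and 1 SKP read. Mtf1 had 3.86 RPKM in fibroblasts and 4.09 in SKPs, a ratio of 1.06 (0.941 to 1.19). The Mt1 and Mt2 messages are related in sequence, and how the authors' counting shared such reads is not known.

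**Figure D2:**
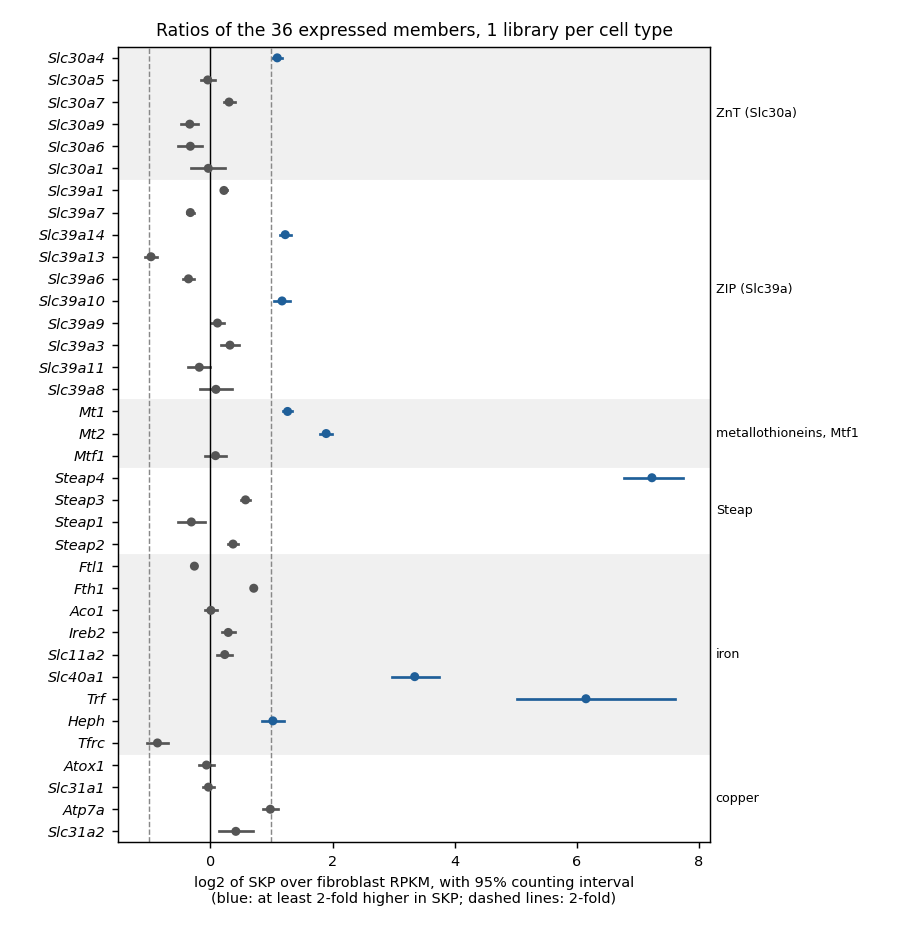
Log2 of SKP over fibroblast RPKM of the 36 expressed members with 95% exact counting intervals, 1 row per gene grouped by family; the dashed lines mark 2-fold. The 9 members called higher in SKPs are blue, and Slc39a13, Tfrc and Atp7a lie just inside the 2-fold lines.

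The metalloreductases, which reduce iron and copper so that they can cross a membrane, held the largest ratio of all members. Steap4 had 37 reads (0.640 RPKM) in fibroblasts and 5725 reads (96.2 RPKM) in SKPs. It was 150.3-fold higher (109 to 214), the 28th highest ratio among 12053 expressed genes. Reads covered 40.9% of the Steap4 gene length in fibroblasts and 98.2% in SKPs, so SKP reads lay along nearly the whole gene model. The other 3 family members were neither. Steap3, the ferrireductase of the transferrin endosome, had 35.3 RPKM in fibroblasts and 52.6 in SKPs. Steap2 had 10.1 and 12.99, and Steap1, which lacks the reductase domain of its relatives, had 17.0 and 13.7. In fibroblasts Steap4 stood at 0.0181 of the level of Steap3, and in SKPs at 1.83.

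Among the iron genes, those of transferrin and of export were the ones higher in the SKP library. Of 9 iron genes all were expressed, 3 were higher in the SKP library and 6 were neither. Among all expressed genes 12.1% were higher and 6.41% were lower. Of the 3, Trf and Slc40a1 passed the expression filter in the SKP library alone. On the uptake side Trf, the iron carrier of plasma, had 6 reads (0.140 RPKM) in fibroblasts and 439 reads (9.93 RPKM) in SKPs, a 71.1-fold difference (32.4 to 195). Its receptor Tfrc had 8.01 RPKM in fibroblasts and 4.39 in SKPs and was 1.82-fold higher in fibroblasts (1.61 to 2.07), under the threshold. Slc11a2, which takes iron out of the endosome, was nearly level at 12.2 and 14.3 RPKM. On the export side ferroportin (Slc40a1), the only known iron exporter of mammalian cells, had 62 reads (0.997 RPKM) in fibroblasts and 649 reads (10.1 RPKM) in SKPs. It was 10.2-fold higher (7.83 to 13.4). Heph, a copper-dependent ferroxidase that works with ferroportin, had 4.42 RPKM in fibroblasts and 8.98 in SKPs, a 2.03-fold difference (1.80 to 2.30) just past the threshold. As a multiple of Tfrc, the level of Slc40a1 was 0.124 in fibroblasts and 2.31 in SKPs.

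Ferritin stores iron in a shell of heavy and light chains, of which the heavy chain (Fth1) oxidises the iron. Fth1 had 24169 reads (869 RPKM) in fibroblasts and 40690 reads (1421 RPKM) in SKPs, a ratio of 1.64 (1.61 to 1.66). Ftl1, the light chain, had 52999 reads (2920.3 RPKM) in fibroblasts and 45484 reads (2434 RPKM) in SKPs, a ratio of 0.834 (0.823 to 0.844). The chains thus moved apart, each by under 2-fold. The level of Fth1 was 0.298 of that of Ftl1 in fibroblasts and 0.584 in SKPs, a change of 1.96-fold (Wald interval 1.92 to 2.00). Both genes have processed copies, 5 of which carry ferritin names in the RefSeq table (Fth-ps2, Fth-ps3, Ftl1-ps1, Ftl1-ps2 and Ftl2-ps), so the reads assigned to each are uncertain. The proteins that set ferritin and receptor output by binding their messages were close between the libraries: Ireb2 had 12.4 RPKM in fibroblasts and 15.1 in SKPs. Aco1 had 20.0 and 20.1, a ratio of 1.00 (0.937 to 1.08).

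The level of Fth1 relative to Ftl1 also rests on the gene length used. The deposited length of Fth1 is 1511 bases, of which 64.1% was under reads in fibroblasts and 65.2% in SKPs. Among 42 genes within 20% of its read density in fibroblasts the median coverage was 97.9%, and 1 had a lower value. Among 11 such genes in SKPs the median was 99.6% and 0 had a lower value. The covered part came to 968 and 985 bases. The GENCODE annotation lists coding Fth1 transcripts of 1494 and 929 bases among others. Over the covered length alone Fth1 would stand at 1357 RPKM in fibroblasts and 2179.97 in SKPs, against 2999 and 2449 for Ftl1 treated alike. The difference between libraries is not touched by the length.

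**Figure D3:**
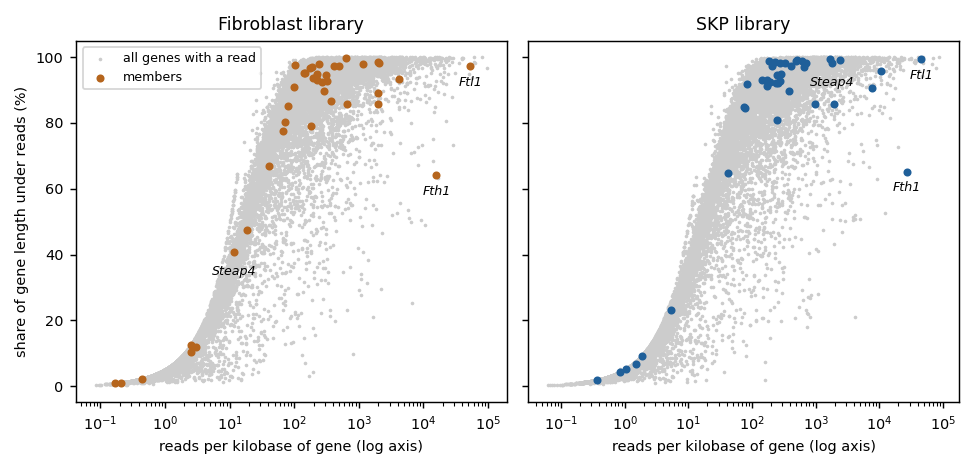
Share of the gene length under reads (percent) against reads per kilobase of gene (log axis), 1 point per gene with a read (grey) and members in colour, with the fibroblast library left and the SKP library right. Fth1 lies at 64.1% and 65.2%, below nearly all genes of its read density, whereas Ftl1 lies near the top, and Steap4 moves from 40.9% to 98.2%.

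Of 5 copper genes with reads, 4 were expressed and none was called, which with so few genes is near the shares over all expressed genes (12.1% higher and 6.41% lower). The importer gene Slc31a1 had 26.9 RPKM in fibroblasts and 26.3 in SKPs, a ratio of 0.978 (0.916 to 1.04). The chaperone gene Atox1 had 108 RPKM in fibroblasts and 103 in SKPs, a ratio of 0.956 (0.874 to 1.04). Both intervals span equality. Slc31a2, a relative of the importer found in endosomes and lysosomes, had 5.66 and 7.55. The copper pump gene Atp7a had 5.46 RPKM in fibroblasts and 10.8 in SKPs, 1.97-fold higher (1.81 to 2.15) and the nearest member below the threshold. Atp7b, the pump of liver, had 1 and 5 reads.

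Across all 27 expressed members that were neither, 12 were under 1.2-fold apart, 11 were 1.2-fold to 1.5-fold apart, and 4 (Slc39a13, Tfrc, Atp7a and Fth1) were further apart. Over all 36 expressed members the ratio was above 1 for 23 and below 1 for 13.

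**Figure D4:**
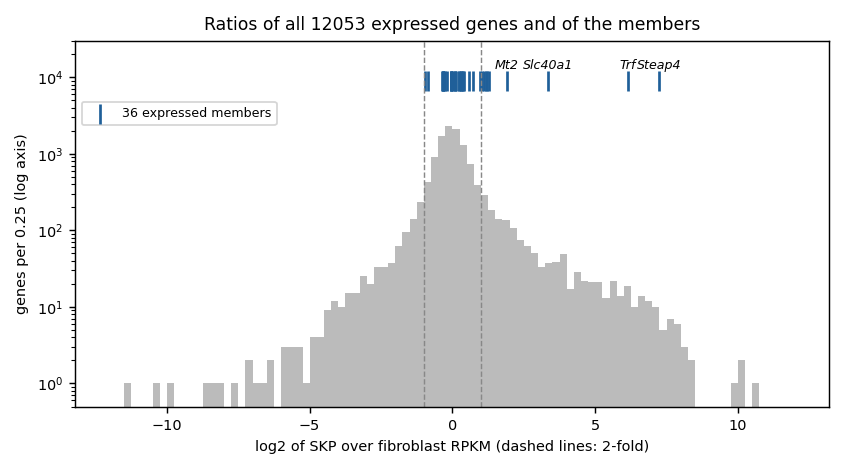
Histogram of the log2 ratio (SKP over fibroblast) for all 12053 expressed genes (grey, log count axis), with a blue tick for each of the 36 expressed members and dashed lines at 2-fold. Steap4 (7.23) and Trf (6.15) lie far out in the right tail, and no member lies left of the lower 2-fold line.

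Other genes of the same pathways were taken from 3 lists, whose counts stand beside 12.1% higher and 6.41% lower among all expressed genes. Of 21 expressed genes of iron and haem handling, 4 were higher in the SKP library and 1 was lower. Higher were Lcn2, which binds the iron carriers of bacteria (1 read in fibroblasts and 1160 in SKPs), and the plasma ferroxidase gene Cp (2.01 RPKM in fibroblasts and 31.5 in SKPs, 15.7-fold, 13.4 to 18.4). The iron regulator gene Hfe2 (3.03-fold) and Lrp1, a receptor for haem bound to hemopexin and for many other ligands (2.29-fold), were the other 2. The 1 lower gene was Slc48a1, a haem transporter (114 RPKM in fibroblasts and 50.7 in SKPs), and the haem-degrading enzyme gene Hmox1 had 224 and 125. Genes of iron-sulfur cluster assembly, Iscu and Nfs1, had 58.4 and 16.8 RPKM in fibroblasts and 38.7 and 10.7 in SKPs.

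Among 15 expressed copper enzymes and chaperones, 4 were lower in the SKP library, 1 (Cp) was higher and 10 were neither. The lower ones were Lox, the lysyl oxidase that crosslinks collagen (539 RPKM in fibroblasts and 61.6 in SKPs, 8.74-fold higher in fibroblasts, 8.47 to 9.03), its relatives Loxl3 and Loxl4, and the extracellular superoxide dismutase gene Sod3 (32.4 and 2.32). The other relatives of Lox were neither: Loxl1 had 213 RPKM in fibroblasts and 207 in SKPs, and Loxl2 had 122 and 107. The cytosolic superoxide dismutase gene Sod1 had 134 and 114, and its copper chaperone Ccs had 15.99 and 14.8. The last list was of zinc-dependent and metallothionein-linked genes, and it also took in Bsg, Trpm7 and Mcoln1. Of its 11 expressed genes, 5 were higher in the SKP library and 1 was lower. Among the 5 higher genes were the zinc proteases Mmp9 (133-fold), Mmp2 (4.30-fold) and Mmp14 (2.59-fold), which belong to 1 family. S100a8, a zinc-binding protein of myeloid cells and keratinocytes, had 0 fibroblast reads and 44 SKP reads. Its ratio was 14.2 when 3 reads stand as the floor for the fibroblast library, and its counting interval starts at 11.1. The glutathione synthesis gene Gclm was 3.16-fold higher in fibroblasts (2.73 to 3.67).

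Markers of several other cell types were also higher in the SKP library, and in bulk RNA more cells of a type and more RNA per cell cannot be told apart. Of 8 adipocyte markers 7 were called higher in the SKP library, and their summed level was 30.8 RPKM in fibroblasts and 388 in SKPs. In fibroblasts Lep was at 0 reads. Of 8 mast cell markers 6 were higher (0.241 and 83.2 RPKM summed), with Cpa3 and Mcpt4 at 0 reads in fibroblasts. The mast cell markers not called were near 0 in both libraries: Fcer1a had 0 fibroblast and 2 SKP reads, and Ms4a2 had 2 and 1. Of 10 macrophage and leukocyte markers 8 were higher (5.25 and 30.8 summed), with Emr1 at 0 in fibroblasts, and all 8 keratinocyte markers were higher (2.81 and 34.9), with Ivl and Krt1 at 0. Erythroid markers were near 0 in both (0.441 and 0.689). Melanocyte markers had 2 higher and 0 lower (4.87 and 19.7), and Tyrp1, with 0 fibroblast and 3 SKP reads, was not called. Endothelial markers had 3 higher and 1 lower (5.25 and 8.85). These calls are without the expression filter. Only 1 melanocyte marker, Mitf, passed that filter, and it made up 3.18 and 17.0 RPKM of the melanocyte sums. Schwann cell markers lay mostly the other way: of 7 expressed, 1 was higher and 4 were lower in the SKP library, with summed levels of 27.7 and 37.5 RPKM, so the sum went against the count. The part of these cells in the levels of Steap4, Trf, Slc40a1, Mt1 and Mt2 was not tested. All 8 markers of dermal fibroblasts were above RPKM 1 in both libraries, but 3 were higher in SKPs (Lum 52.4-fold, Fap 11.7-fold and Dcn 6.89-fold) and 2, Thy1 and Col1a1, were lower. Of 8 SKP and neural crest markers 3, among them Nes, were higher in the SKP library and 1, Sox10, was lower.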

How the data were processed

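The authors deposited 1 table of genes per library. Its reads per gene are whole-number counts without normalization, and their column header calls the reads unique. Its RPKM values are those counts scaled by gene length and by the total count. The deposited coverage gives, in percent, how much of the gene lay under reads. The authors' comparison table holds the same counts and RPKM for all 17431 genes, and its deposited log2 ratio is of fibroblast over SKP RPKM. It equalled the negative of the ratio computed here within 0.001 for 15565 of 15578 genes with reads in both libraries. The deposited mapping tables give percent of total reads: of 23374716 fibroblast and 22981183 SKP reads, 81.65% and 85.13% mapped to genes, with up to 2 mismatches. Counted reads nevertheless exceed reads with a single match by 3924587 and 4370357, so reads at several positions were counted in some way. Whether those positions lay within 1 gene or in several is not known, so splits between related genes are uncertain. Per the submitters' processing notes, mm9 was the genome build. No aligner, counting tool, annotation or strandedness is given in the sources used here, so overlapping and antisense genes could not be separated.

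A gene absent from a table was given 0 reads. Ratios of RPKM and their exact (Clopper-Pearson) 95% counting intervals were computed with scipy 1.17.1, numpy 2.4.6 and pandas 2.3.3 under Python 3.11.15, scaling factors with edgeR 4.0.16 in R 4.3.3, and figures with matplotlib 3.10.9. A library with 0 reads was compared with a floor of 3 reads. The calculation was tested on simulated data. PCR duplicates are not independent molecules. Every member is named, and from each list of other pathway genes up to 4 with the largest ratio. Slc48a1, Hmox1, Iscu, Nfs1, Loxl1, Loxl2, Loxl4, Sod1, Ccs, Mmp14, Bsg, Trpm7 and Mcoln1 were added after their values were seen. Members and lists were chosen with earlier results of these data known. Filters, the log scale, scaling, the fold threshold and the source of the counts were varied. A marker gene is not reported here.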

Additional observations from a re-analysis of the deposited data

How the results depend on the processing

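With 1 library per cell type no replicate could be left out. No paired analysis was possible because each cell type had a single library. The count of members higher in the SKP library was 9 and lay between 8 and 11 under the other filters, scalings, thresholds and count source named in the methods. It was 6 of 33 with the expression filter applied to both libraries, an alternative chosen after seeing the data, which leaves out Steap4, Trf and Slc40a1. The log2(RPKM + 1) scale took out Heph (log2 ratio 0.88), no filter added Slc39a4, and a 1.5-fold threshold added Atp7a and Fth1. The count of lower members was 0 except at 1.5-fold, where it was 2 (Slc39a13 and Tfrc), against 18.7% higher and 14.2% lower among all expressed genes. The members' median of 0.23 was 0.29 with genes at RPKM 5 or more, 0.21 with the TMM factor and 0.12 with the filter applied to both libraries. No called member changed direction. With the TMM factor 1 member, Aco1, crossed equality, with a log2 ratio of -0.01 in place of 0.01. Scaling moved all ratios by -0.02 (TMM) and 0.01 (median-of-ratios) on the log2 scale. Depth limits Trf, with 6 fibroblast reads, and the 7 members below the expression filter.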
